A study of Homo sapiens with 6 samples.

Results

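The response described here is the set of genes that were higher, or lower, in every library treated with an siRNA against PLXND1 than in the control of the same cell line. PLXND1 encodes plexin D1, the gene silenced here in a study of how resistant prostate cancers take on neural features. The data were 6 messenger RNA libraries from C4-2B MDVR and H660, established human prostate cancer cell lines, with 3 libraries per line. C4-2B MDVR is a derivative of C4-2B selected for growth in enzalutamide, a drug that blocks androgen signalling, and H660 is a neuroendocrine prostate cancer line. Each line had 1 control siRNA library and 1 library for each of 2 PLXND1 siRNAs, called siRNA 1 and siRNA 2, and no siRNA or control was repeated within a line. All 6 libraries carried an siRNA; no untransfected library was analysed here. No time after transfection is given, and nothing in the labels ties the libraries to separate cultures, so the p-values measure only the spread between these libraries, which may be technical. In the fit of both lines together, that spread also holds any difference in the change between the siRNAs or between the lines. Of 58735 gene IDs, 11196 had a mean of at least 1 FPKM (fragments scaled for exon length and sequencing depth) over the 3 libraries of each line. A change is the difference in log2(FPKM + 1) between a knockdown library and the control of its line, a scale that understates the change of genes near 1 FPKM. Among the 11196 genes, 2500 (22.3%) had the same sign in all 4 knockdown libraries: 1371 (12.2%) were higher in all 4 and 1129 (10.1%) were lower in all 4.

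Plexin D1 is a cell-surface receptor for class 3 semaphorins that acts on small GTPases and guides growing axons and blood vessels. Many of the higher genes described below belong to the integrated stress response. In that pathway kinases that sense unfolded proteins, lack of amino acids or foreign RNA phosphorylate the initiation factor eIF2alpha, general translation slows, and translation of the transcription factor ATF4 increases. ATF4, together with partners such as C/EBP factors, then switches on genes for amino acid synthesis and redox balance and, when stress persists, DDIT3 (CHOP) and genes that promote cell death.

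Recovered fragment numbers ran from 17655802 to 24105369 per library. The lines matched their names: all 8 luminal prostate markers reached 1 FPKM in C4-2B MDVR and 1 of 8 did in H660. Of 8 neuroendocrine markers, 8 reached 1 FPKM in H660 and 1 did in C4-2B MDVR. Fibroblast, immune and endothelial markers summed to at most 10.7 FPKM in any library. Mitochondrial genes took 3.38% of the fragments in the control of C4-2B MDVR against 6.83% to 9.64% in the other 5 libraries. Every change in C4-2B MDVR is taken from that control, and counts with mitochondrial genes left out are given below.

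PLXND1 itself (GRCh38, chr3:129555175-129606818, minus strand) was at 7.40 FPKM in the C4-2B MDVR control, 1.57 with siRNA 1 and 3.10 with siRNA 2. In H660 it was at 9.13 FPKM in the control, 7.62 with siRNA 1 and 7.54 with siRNA 2. All 4 knockdown libraries lay below the control of their line, far below it in C4-2B MDVR and only slightly in H660. The levels left were 21.2% (95% interval 18.7 to 24.0) and 41.8% (37.7 to 46.4) of the control in C4-2B MDVR, and 83.5% (78.3 to 88.9) and 82.6% (77.6 to 87.9) in H660. These intervals come from an exact binomial for the fragments of 2 libraries and cover counting error only. In bulk RNA, a lower level in every cell and fewer cells that hold the transcript cannot be told apart. The additive effect over both lines was -0.81 ± 0.29 (SE) with an adjusted p of 0.991 by limma, and the target thus did not pass in the joint fit.

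**Figure D1:**
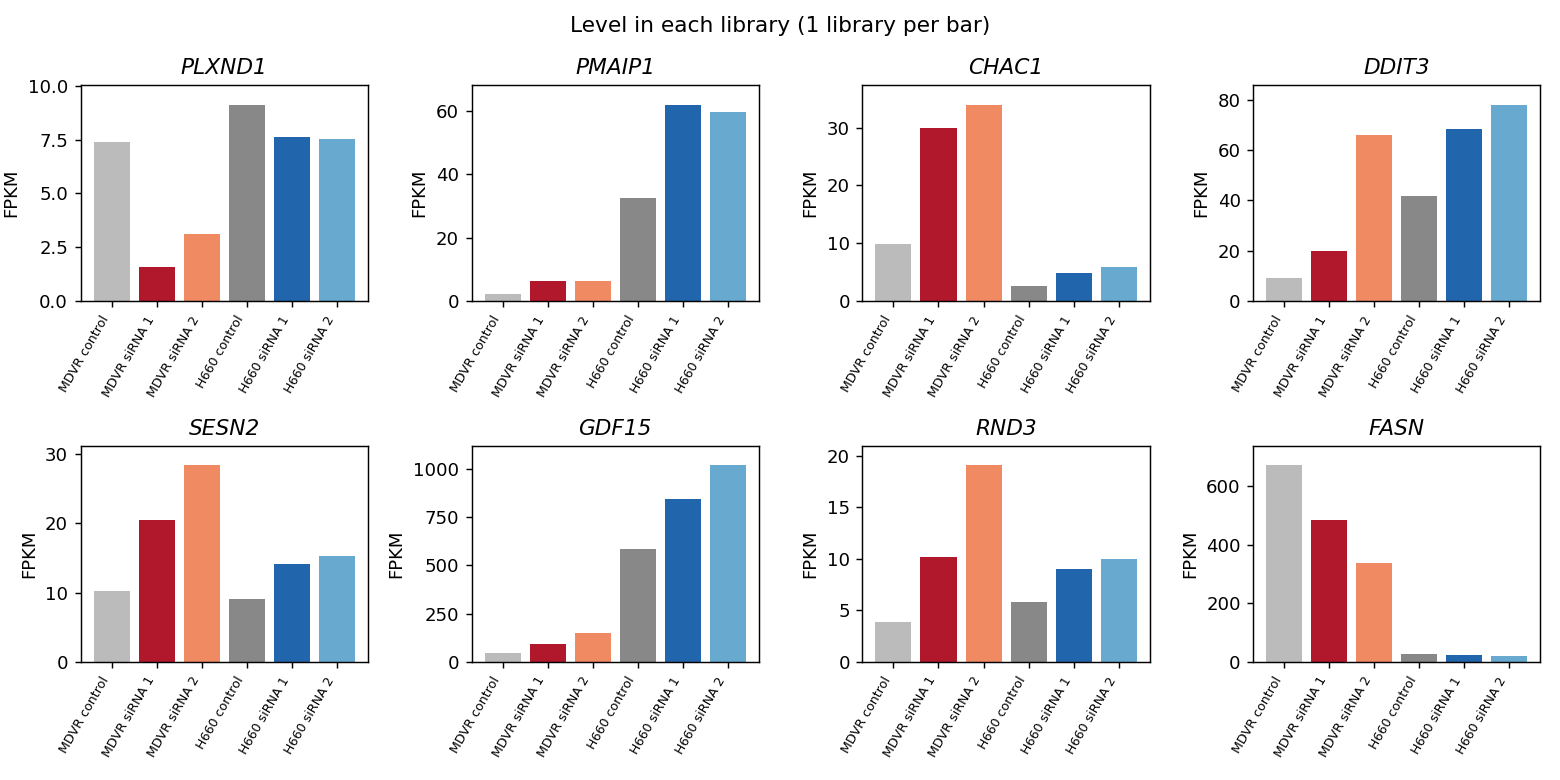
Level of PLXND1, of 6 genes that were higher in all 4 knockdown libraries and of FASN, which was lower in all 4, in each of the 6 libraries, in FPKM on linear axes that start at 0; each bar is 1 library, so there are no error bars. PLXND1 drops from 7.40 to 1.57 and 3.10 FPKM in C4-2B MDVR and from 9.13 to 7.62 and 7.54 FPKM in H660, while PMAIP1 goes from 2.14 to 6.22 and 6.31 FPKM and from 32.5 to 61.9 and 59.7 FPKM.

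The joint comparison asked which genes respond to PLXND1 siRNA in the same way in both lines. No gene passed an adjusted p of 0.05 in limma's fit of line and knockdown (0 of 11196, 0%), and none passed with voom on the recovered fragments. The lowest adjusted p by limma was 0.372, shared by PMAIP1 and 2 short RNA genes. At an unadjusted p under 0.05 there were 508 genes (4.54%), 340 higher (3.04%) and 168 lower (1.5%), and voom gave 205 higher and 323 lower. The genes with a common sign are therefore described by their values.

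Agreement between the lines was close to what the size of each line's own lists gives. In C4-2B MDVR 3825 genes were higher with both siRNAs, and 1371 of them (35.8%) were also higher with both in H660, against 34.8% (3897) of all genes tested. Among the 2796 genes lower with both siRNAs in C4-2B MDVR, 1129 (40.4%) were lower with both in H660, against 38.9% (4356) of all. A further 1449 genes were higher in C4-2B MDVR and lower in H660, and 912 were the reverse. Both changes of a line are taken from the same control, so a control that is off for a gene moves both together.

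Among the largest changes the share depended on the line and the direction. Of 70 genes at least 1 log2 unit higher with both siRNAs in C4-2B MDVR, 40 (57.1%) were also higher in H660, against the 34.8% above. Selected the other way, 7 of 31 genes (22.6%) at least 1 log2 unit higher in H660 were also higher in C4-2B MDVR, against 34.2% of all. For the genes chosen in C4-2B MDVR the share was 38.6% against 32.9% after quantile normalization, 48.4% against 32.4% with mitochondrial genes and short RNAs left out, and 45.3% against 33.0% with voom. Among lower genes the lines changed places: 7 of 18 genes (38.9%) at least 1 log2 unit lower in C4-2B MDVR were also lower in H660, against 38.9% of all. In H660, 8 of 17 (47.1%) at least 1 unit lower and 30 of 73 (41.1%) at least 0.5 lower were also lower in C4-2B MDVR, against 25% of all. With voom the latter share was 40.1% against 40.5%. Across all 11196 genes the changes of the lines were almost unrelated, with Pearson's r from -0.05 (siRNA 1 in both) to 0.13 (siRNA 2 in both).

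**Figure D2:**
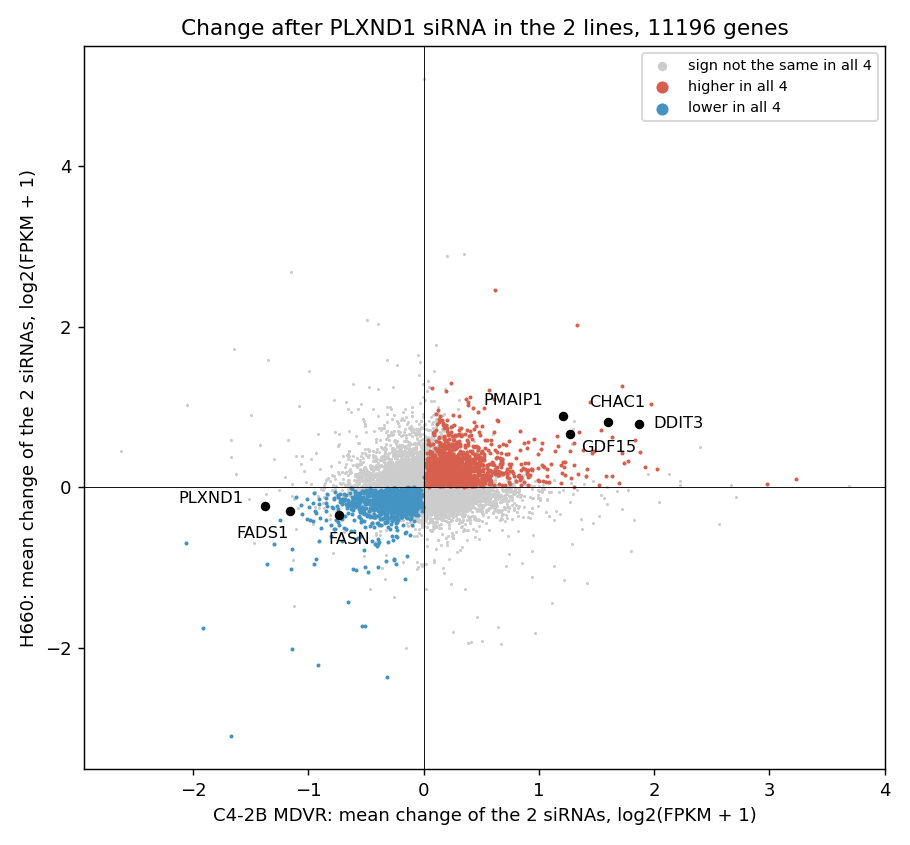
Mean change of the 2 siRNAs in C4-2B MDVR (x axis) against that in H660 (y axis), in log2(FPKM + 1), 1 point per gene for 11196 genes; red marks the 1371 genes higher and blue the 1129 lower in all 4 knockdown libraries, and black the genes named. The cloud shows no slope, and CHAC1, DDIT3, GDF15 and PMAIP1 stand out in the upper right while PLXND1, FADS1 and FASN lie far to the left and little below 0.

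Which genes count as common also depended on the scale. Quantile normalization gave 1110 higher and 1467 lower in all 4, leaving out mitochondrial genes and short RNAs gave 869 and 1694, and voom gave 781 and 1918. In C4-2B MDVR the median over all genes moved from 0.03 on the deposited scale to -0.09 with voom. Of the 1371 higher genes 726 (53%) kept the sign in all 4 libraries under all 3 of these scalings, and of the 1129 lower genes 1094 (96.9%) did. A stricter set holds the larger changes: 108 genes (0.965%) were at least 0.25 log2 units higher in all 4 and 60 (0.536%) at least 0.25 lower. The size of this set also moved with the scale, to 80 higher and 85 lower after quantile normalization, 56 and 84 with mitochondrial genes and short RNAs left out, and 93 and 173 with voom. At 0.5 log2 units, 13 genes (0.116%) were higher and 8 (0.0715%) lower in all 4. At the other end, GPR176 was just inside the rule, with changes of 0.20, 0.07, 1.64e-06 and 0.02, and RNF5 just outside, with 0.66, 0.54, -4.26e-06 and 0.13.

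The stress-response promoters are shown first because they carry the one sequence feature searched for ATF4, the C/EBP-ATF response element, spelled TGATGNAAN and searched on both strands. Promoters were taken from RefSeq (GRCh38.p14), from 250 bases before to 50 bases after the start site. Each gene tested was searched only at the first window listed for it, so any other start sites were not examined. The 35116 promoters below are all windows listed. Of 15 ATF4-pathway genes that were higher in all 4 and had a promoter in that table, 3 held the motif, and of the 12 other tested members 0 did. Among the promoters of genes tested, 115 of 8155 (1.41%) held it, and among all 35116 promoters 3.61%. The 3 promoters are printed 5′ to 3′ on the strand of the gene, with the match in capitals.
CHAC1: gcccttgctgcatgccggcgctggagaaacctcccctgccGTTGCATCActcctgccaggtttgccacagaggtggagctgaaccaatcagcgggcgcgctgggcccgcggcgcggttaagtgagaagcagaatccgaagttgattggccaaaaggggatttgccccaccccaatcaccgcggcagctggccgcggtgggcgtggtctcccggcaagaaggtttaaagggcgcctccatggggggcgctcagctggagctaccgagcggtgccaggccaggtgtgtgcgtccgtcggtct
ATF3: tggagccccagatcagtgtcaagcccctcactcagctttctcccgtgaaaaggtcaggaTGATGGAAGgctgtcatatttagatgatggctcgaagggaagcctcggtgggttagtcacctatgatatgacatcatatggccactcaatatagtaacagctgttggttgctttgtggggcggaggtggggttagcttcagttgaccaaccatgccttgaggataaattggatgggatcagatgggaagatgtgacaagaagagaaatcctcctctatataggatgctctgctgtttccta
ASNS: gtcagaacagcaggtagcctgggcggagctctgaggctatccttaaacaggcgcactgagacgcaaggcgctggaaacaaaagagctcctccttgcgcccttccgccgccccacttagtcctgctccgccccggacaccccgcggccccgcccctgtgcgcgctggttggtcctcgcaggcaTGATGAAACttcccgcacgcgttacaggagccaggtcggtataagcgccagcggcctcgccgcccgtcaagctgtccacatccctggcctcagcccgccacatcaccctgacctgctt
The CHAC1 window is chr15:40953221-40953520 (plus strand), and its match starts at position -210 from the start site, on the opposite strand. The ATF3 window is chr1:212565157-212565456 (plus strand), with the match at -191. The ASNS window is chr7:97872359-97872658 (minus strand), with the match at -68. A match describes letters only and says nothing of whether a factor is bound there.

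Genes of the ATF4 integrated stress response had medians above 0 in all 4 knockdown libraries. Of 35 listed genes 32 were tested; 16 (50%) were higher in all 4 knockdown libraries and 0 were lower in all 4, against 12.2% and 10.1% of all genes. The median change was 0.25 and 0.61 with siRNA 1 and 2 in C4-2B MDVR and 0.34 and 0.48 in H660, while the medians of all genes in the 4 lay between -0.02 and 0.04. None passed over all genes, and 11 of the 32 had an unadjusted p under 0.05 by limma, each of them higher. Of all 11196 genes, 340 (3.04%) were higher at that limit. The count of 16 became 13 to 14 under the 3 scalings, with 0 lower in each, 25 without the C4-2B MDVR siRNA 1 library, and 26 with 2 lower without the C4-2B MDVR control, when H660 alone gives the signs. Fewer signs have to match with a library left out. Of all genes 2356 were higher without that siRNA 1 library, and 34.8% were higher and 38.9% lower from H660 alone. The siRNA 1 library of C4-2B MDVR had several amino acid enzymes below the control, as given below.

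Among the transcription factors of the pathway, DDIT3 (chr12:57516588-57521737), the death-promoting factor CHOP, was at 9.23 FPKM in the C4-2B MDVR control against 19.8 and 66.0 with siRNA 1 and 2, and at 41.9 FPKM in the H660 control against 68.3 and 78.0. Every knockdown library was above its control, and siRNA 2 gave the higher value in both lines. The additive effect was 1.33 ± 0.46 (SE), with limma's adjusted p at 0.991. Exons of DDIT3 share 27.2% of their length with MARS on the opposite strand, and the strand used in counting is not given in the sources used here. MARS itself had changes of 0.06 to 0.42.

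ATF3, a stress-induced factor whose promoter is shown above, was at 6.38 FPKM in the C4-2B MDVR control, 16.5 with siRNA 1 and 41.2 with siRNA 2. In H660 its values were 19.4, 27.7 and 25.5 FPKM. CEBPB, the ATF4 partner C/EBPbeta, was at 57.0, 74.2 and 110 FPKM in C4-2B MDVR and at 103, 131 and 166 in H660. Both factors were above the control in each line, with the wider gap in C4-2B MDVR for ATF3 and with siRNA 2 ahead of siRNA 1 in both lines for CEBPB. ATF4 is regulated mainly by translation, and its transcript did not have 1 sign: its changes were -0.11 and 0.73 in C4-2B MDVR and 0.17 and 0.29 in H660.

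Feedback and redox genes of the pathway were higher with either siRNA in both lines. CHAC1 (chr15:40952962-40956519), an enzyme that degrades glutathione, was at 9.87 FPKM in the C4-2B MDVR control against 29.9 and 34.0, and at 2.63 in the H660 control against 4.88 and 5.96. Its smallest change of the 4 was 0.70, its effect was 1.21 ± 0.20 and its adjusted p was 0.991 by limma, and at least 0.214 under every alternative run. SESN2, a sestrin that restrains mTORC1 when amino acids are short, was at 10.3, 20.4 and 28.4 FPKM in C4-2B MDVR and at 9.07, 14.2 and 15.2 in H660. In both genes the 2 knockdown libraries of a line lay closer to each other than to the control.
TRIB3, a pseudokinase that damps ATF4 signalling, had changes of 0.33 and 1.35 in C4-2B MDVR and 0.56 and 0.84 in H660. DDIT4 (REDD1), another brake on mTORC1, was at 151, 263 and 227 FPKM in C4-2B MDVR and at 7.85, 9.78 and 14.3 in H660. PPP1R15A (GADD34), which directs dephosphorylation of eIF2alpha, was at 2.39, 4.19 and 5.91 FPKM in C4-2B MDVR but only at 14.8, 16.4 and 16.4 in H660. The 3 genes were thus higher in all 4, with PPP1R15A the smallest in H660, at 0.14 for each siRNA.

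Secreted and cell-death products of the response were also higher in both lines. GDF15 (chr19:18374731-18389176), a stress cytokine, was at 47.3, 90.4 and 148 FPKM in C4-2B MDVR and at 584, 843 and 1018 in H660. The line that started higher, H660, thus also had the smaller changes, 0.53 and 0.80 against 0.92 and 1.63. BBC3 (PUMA), a pro-apoptotic BH3-only protein, had changes of 0.65 and 1.81 in C4-2B MDVR and 0.16 and 0.46 in H660.

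Enzymes of serine and one-carbon metabolism split by siRNA in C4-2B MDVR. PSAT1 was at 129, 136 and 251 FPKM in C4-2B MDVR and at 33.9, 55.2 and 61.4 in H660, and PCK2 at 37.9, 48.0 and 68.7 and at 22.3, 31.3 and 36.8. PHGDH, SHMT2 and MTHFD2 were not in the common set, because siRNA 1 in C4-2B MDVR gave changes of -0.13, -0.28 and -0.25, whereas the other 3 libraries gave 0.28 to 0.68. ASNS, asparagine synthetase, was at 5.79, 5.97 and 10.1 FPKM in C4-2B MDVR and at 1.04, 1.16 and 1.56 in H660, so that its siRNA 1 values barely exceeded the controls. PSAT1, ASNS and VLDLR were the 3 of the 16 that lost the common sign under at least 1 of the 3 scalings. The cytosolic aminoacyl-tRNA synthetases, many of which are ATF4 targets, differed between the siRNAs of C4-2B MDVR in the same way: their medians were -0.16 and 0.23 there and 0.23 and 0.27 in H660. The list also holds AIMP1, AIMP2 and EEF1E1, which are partners of the synthetases. Of 23 tested, 6 were higher and 1 lower in all 4, against 1 to 2 higher and 2 lower under the 3 scalings. Without the C4-2B MDVR siRNA 1 library 14 were higher and 2 lower, against 2356 and 2073 of all genes. H660 alone gave 20 and 2, against 34.8% and 38.9% of all. C4-2B MDVR alone gave 6 and 7, against 34.2% and 25% of all. SARS led the list, at 42.3, 49.3 and 76.8 FPKM in C4-2B MDVR and 44.2, 60.9 and 73.8 in H660, and 1 of the 6 kept its sign under all 3 scalings.

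**Figure D3:**
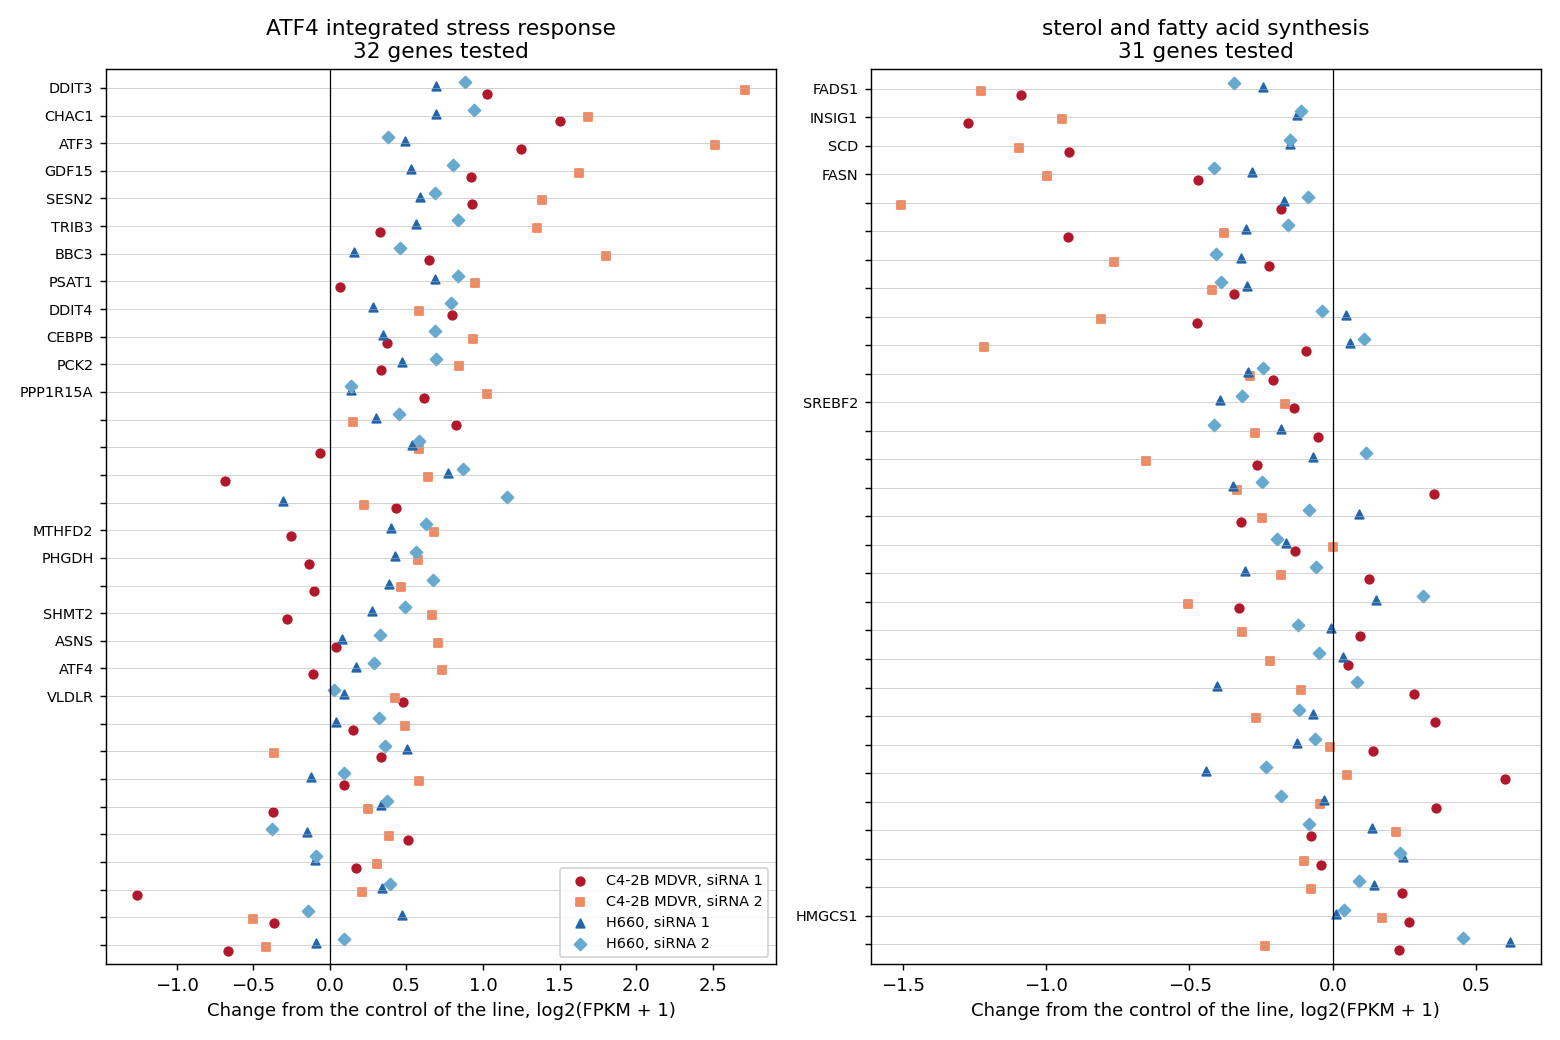
Change from the control of the line in log2(FPKM + 1) for the 32 tested genes of the ATF4 integrated stress response (left) and the 31 of sterol and fatty acid synthesis (right), 1 symbol per knockdown library, ordered by the additive effect, with the genes described in the text labelled. On the left panel 16 genes have all 4 symbols to the right of 0 and 0 have all 4 to the left, and on the right panel 11 have all 4 to the left and 1 to the right.

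PMAIP1 (chr18:59899948-59904306), the BH3-only protein NOXA that primes mitochondria for apoptosis, had a smallest change of 0.86, the largest among the genes named here. It was at 2.14 FPKM in the C4-2B MDVR control against 6.22 and 6.31, and at 32.5 in the H660 control against 61.9 and 59.7. The siRNAs of a line gave nearly the same level, and the H660 control was above every C4-2B MDVR library. The knockdown levels were 291% and 295% of the control in C4-2B MDVR and 191% and 184% in H660, and the effect was 1.05 ± 0.13 (SE; limma adjusted p = 0.372, and at least 0.25 under every alternative run). PMAIP1 is a known target of both ATF4 and p53.

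Targets of p53 had larger medians in C4-2B MDVR than in H660. Of 28 tested p53 targets 14 (50%) were higher and 0 lower in all 4, against 12.2% and 10.1% of all genes, with medians of 0.68 and 1.12 in C4-2B MDVR and only 0.13 and 0.12 in H660. SESN2, GDF15 and BBC3 are on the ATF4 list as well. SESN1, a p53-regulated sestrin, was at 3.10, 10 and 10.5 FPKM in C4-2B MDVR and at 3.41, 5.13 and 4.68 in H660. The cell-cycle inhibitor CDKN1A shows the split most plainly, with 47.5, 422 and 346 FPKM in C4-2B MDVR and 92.6, 96.3 and 94.5 in H660, changes of 3.13, 2.84, 0.06 and 0.03. CDKN1A lost the common sign under at least 1 scaling. Counts under the 3 scalings were 12 to 13 higher and 0 to 1 lower, 16 higher with 5 lower from H660 alone (without the C4-2B MDVR control), and 24 higher with 1 lower from C4-2B MDVR alone (without the H660 control). All genes gave 34.8% higher and 38.9% lower from H660 alone, and 34.2% and 25% from C4-2B MDVR alone.

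The endoplasmic reticulum genes were higher by little. Of 31 tested chaperone and unfolded protein response genes 13 (41.9%) were higher and 1 was lower in all 4. Among all genes 12.2% were higher and 10.1% lower. The medians of the list were 0.07 and 0.26 in C4-2B MDVR and 0.16 and 0.16 in H660. The median for siRNA 1 in C4-2B MDVR turned to -0.02 after quantile normalization and to -0.05 with voom, and the count higher in all 4 was 8 to 11 under the 3 scalings, 20 without the C4-2B MDVR siRNA 1 library and 22, with 4 lower, without the C4-2B MDVR control. Under the 3 scalings 781 to 1110 of all genes were higher in all 4, and 34.8% of all were higher without the C4-2B MDVR control. DNAJB9, the co-chaperone ERdj4, was at 8.64, 13.0 and 21.2 FPKM in C4-2B MDVR and at 3.57, 5.26 and 6.13 in H660. HERPUD1, which serves degradation of misfolded proteins at the endoplasmic reticulum, was at 19.9, 23.7 and 59.9 and at 6.77, 9.36 and 10.4 FPKM. HSPA5, the chaperone BiP, was far above the control in 1 library: it was at 208, 219 and 559 FPKM in C4-2B MDVR and at 177, 208 and 216 in H660. All 3 genes had their largest change with siRNA 2 in C4-2B MDVR.

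Other genes higher in all 4 came from several functions. RND3, an atypical small GTPase that loosens the actin cytoskeleton, was at 3.82, 10.2 and 19.1 FPKM in C4-2B MDVR and at 5.79, 9.03 and 9.97 in H660. It led the list of small GTPases downstream of plexins, which also holds regulators and effectors of GTPases, such as RASA1, ROCK1, LIMK1 and CFL1. Of the 29 tested genes of this list 11 (37.9%) were higher and 0 lower in all 4, against 12.2% and 10.1% of all genes. That balance leaned on the scale, since 9 were higher and 2 to 3 lower under each of the 3 scalings, 18 and 3 from C4-2B MDVR alone (without the H660 control) and 16 and 8 from H660 alone (without the C4-2B MDVR control). All genes gave 34.2% higher and 25% lower from C4-2B MDVR alone, and 34.8% and 38.9% from H660 alone. HMOX1, heme oxygenase, was at 5.13, 14.3 and 30.2 FPKM in C4-2B MDVR and at 7.64, 10.7 and 13.4 in H660, and 6 of the 19 tested oxidant-response genes were higher in all 4 with 1 lower.
HES1, a repressor that Notch signalling induces, was at 22, 30.6 and 38.2 FPKM in C4-2B MDVR and at 9.03, 16.0 and 14.3 in H660. The Notch list as a whole was balanced, with 3 of 17 higher and 3 lower in all 4. LMO4, a LIM-domain adaptor of transcription complexes, was at 17.1, 47.2 and 33.3 and at 2.52, 4.17 and 3.85 FPKM. DDO, which oxidises D-aspartate, was at 1.31, 4.03 and 3.44 and at 2.31, 4.04 and 3.72 FPKM. CHMP5, a subunit of the ESCRT-III membrane-sorting complex, was even over the 4, with changes of 0.59, 0.47, 0.52 and 0.45 from controls at 40.0 and 21.7 FPKM. ATP6V1G1, a subunit of the proton pump of lysosomes, had 0.76, 0.52, 0.40 and 0.48.
TMEM263 had 0.87, 0.41, 0.84 and 0.83. HIST1H2BC, a histone H2B gene, had 3.02, 0.42, 1.19 and 1.33 but rested on few fragments, 31 in 1 control and 6 in the other.

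**Figure D4:**
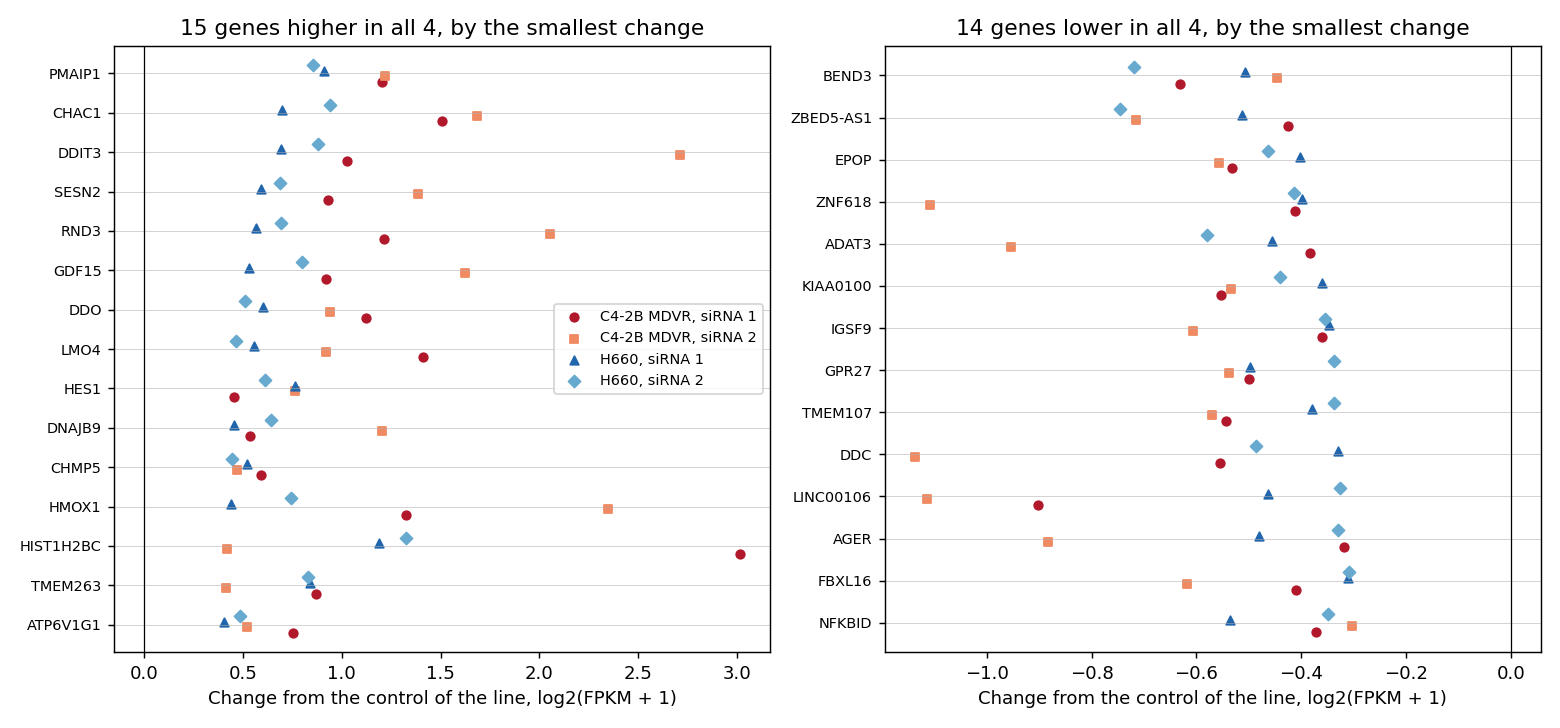
Change from the control of the line in log2(FPKM + 1) for the 15 genes higher (left) and 14 of the 15 lower (right) in all 4 knockdown libraries with the largest smallest change, 1 symbol per library. On the left every symbol lies at or above 0.40 and DDIT3, RND3 and HMOX1 reach past 2 with siRNA 2 in C4-2B MDVR; on the right every symbol lies at or below -0.30 and 3 genes pass -1.

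Genes of sterol and fatty acid synthesis had medians below 0 in all 4 knockdown libraries. These enzymes are controlled together by the SREBP transcription factors, which are held back when sterols are plentiful. Of 31 tested genes 11 (35.5%) were lower and 1 was higher in all 4, against 10.1% and 12.2% of all genes, and the medians were -0.09 and -0.27 in C4-2B MDVR and -0.13 and -0.11 in H660. None passed over all genes, and 6 of the 31 had an unadjusted p under 0.05 by limma, each lower. Of all 11196 genes, 168 (1.5%) were lower at that limit. The lower count was 12 to 13 under the 3 scalings, with 0 to 1 higher, 17 without the C4-2B MDVR siRNA 1 library, 19 (6 higher) without the C4-2B MDVR control and 17 without the H660 control. All genes gave 2073 lower without that siRNA 1 library. They gave 38.9% lower and 34.8% higher without the C4-2B MDVR control, and 25% lower without the H660 control. The median effect over the list, -0.14, was -0.05 without the C4-2B MDVR siRNA 2 library and -0.22 with voom.

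FASN (chr17:82078333-82098332), fatty acid synthase, was at 671, 483 and 336 FPKM in C4-2B MDVR and at 26.7, 21.8 and 19.8 in H660. It was lower in all 4, with siRNA 2 below siRNA 1 in each line, and its additive effect was -0.54 ± 0.19 (SE; limma adjusted p = 0.991).
FADS1, a fatty acid desaturase, was at 21.1, 9.37 and 8.43 FPKM in C4-2B MDVR but only went from 16.2 to 13.6 and 12.6 in H660. SCD, stearoyl-CoA desaturase, was at 290, 153 and 135 and at 15.3, 13.7 and 13.7 FPKM. INSIG1, which retains SREBP in the endoplasmic reticulum, was at 150, 61.6 and 77.5 and at 11.9, 10.8 and 10.9 FPKM. The direction was common in these 3 genes, while the change in H660 was a small part of that in C4-2B MDVR.
SREBF2, the sterol-sensing SREBP, had changes of -0.14 and -0.17 in C4-2B MDVR and -0.39 and -0.32 in H660. HMGCS1, an early enzyme of the pathway, was the 1 gene of the list higher in all 4, with changes of 0.27, 0.17, 0.01 and 0.04. The core of the sterol response element, spelled TCACNCCAC and searched on both strands, was found in 1 of the 25 promoters of list members in the table, that of SREBF2, against 90 of 8155 promoters of genes tested.

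Single genes lower in all 4 were of mixed function. BEND3, a chromatin-bound repressor, was at 1.65, 0.712 and 0.945 FPKM in C4-2B MDVR and at 7.26, 4.82 and 4.02 in H660. EPOP, a partner of Polycomb repressive complex and elongin, was at 18.2, 12.3 and 12 and at 4.45, 3.12 and 2.95 FPKM. KIAA0100 was at 36.7, 24.7 and 25 and at 18.4, 14.1 and 13.3 FPKM. In these 3 genes the siRNAs of each line gave similar levels.
DDC, which makes dopamine and serotonin from their amino acid precursors and is a neuroendocrine gene, was at 10.5, 6.86 and 4.24 FPKM in C4-2B MDVR and at 19.2, 15.1 and 13.5 in H660. ZNF618, a zinc finger gene, had changes of -0.41, -1.11, -0.40 and -0.41, and ADAT3, part of the enzyme that makes inosine in tRNA, -0.38, -0.95, -0.46 and -0.58. Both were set apart by siRNA 2 in C4-2B MDVR, the lowest of the 4. GPR27, IGSF9, TMEM107, FBXL16, AGER, NFKBID and LINC00106 had smallest changes of -0.30 to -0.35. The antisense RNA ZBED5-AS1 shares 27.0% of its exon length with ZBED5 on the other strand, ADAT3 shares 35.4% with SCAMP4 on the same strand, and TMEM107 holds the short RNA SNORD118, so the counting could split their reads otherwise. Of the 30 genes ranked by size in both directions, 5 shared at least 10% of their exon length with another gene.

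Proteasome subunits were lower in all 4 for 8 of 30 genes (26.7%) and higher for 1 (3.33%), against 10.1% and 12.2% of all genes. Under the 3 scalings 12 to 13 were lower and 0 higher. Lower subunits numbered 15 without the H660 siRNA 1 library, 16 from H660 alone and 18 from C4-2B MDVR alone, where fewer signs have to match. Of all genes 1532 were lower without that library and 38.9% from H660 alone. C4-2B MDVR alone gave 25% of all genes lower and 34.2% higher. PSMD1, a subunit of the regulatory particle, was at 29.5, 24.0 and 21.6 FPKM in C4-2B MDVR and at 30.5, 26.2 and 22.8 in H660. Of 19 heat shock genes 6 (31.6%) were lower and 2 (10.5%) higher, with 10 lower and 6 higher from C4-2B MDVR alone, and the constitutive chaperone HSPA8 was at 508, 419 and 380 FPKM in C4-2B MDVR and at 102, 88.4 and 75.1 in H660. PSMD1 and HSPA8 were lowest with siRNA 2 in each line.
Genes of the G2 and M phases were lower in all 4 for 9 of 39 (23.1%) and higher for 1 (2.56%), against 10.1% and 12.2% of all genes. The balance depended on 1 library. Without the C4-2B MDVR siRNA 1 library 9 were again lower but 7 were higher, against 2073 and 2356 of all genes. The median effect was then 0.02 in place of -0.12. H660 alone gave 15 lower and 14 higher, against 38.9% and 34.8% of all genes. Without the C4-2B MDVR siRNA 2 library 15 were lower and 1 higher, against 1963 and 2000 of all genes. C4-2B MDVR alone gave 19 and 1, against 25% and 34.2% of all. The proliferation marker MKI67 was at 14, 7.18 and 11.7 FPKM in C4-2B MDVR and 22.3, 18.3 and 15.7 in H660. CDK1, the kinase that drives mitosis, was the higher one, with changes of 0.27, 0.22, 0.51 and 0.54. MYC and nucleolar targets were lower for 8 of 33 (24.2%) and higher for 0, against 8 and 6 without the C4-2B MDVR siRNA 1 library, 20 and 1 without siRNA 2 and 20 and 10 from H660 alone. Their medians were -0.49 and 0.17 in C4-2B MDVR against -0.05 and -0.06 in H660. The G2 and M list had medians of -0.52, 0.00, 0.05 and -0.08 in the same order. In both lists siRNA 1 in C4-2B MDVR had the lowest median of the 4.

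Interferon genes were higher in all 4 for 8 of 26 (30.8%) and lower for 0, against 12.2% and 10.1% of all genes, with medians of 0.70 and 0.56 in C4-2B MDVR and 0.04 and 0.02 in H660. OAS1, a sensor of double-stranded RNA, was at 0.302, 3.48 and 3.22 FPKM in C4-2B MDVR and at 14.5, 17.5 and 18.8 in H660. IFIT5 was more even, with changes of 0.31, 0.36, 0.50 and 0.27. The count was 7 to 8 under the 3 scalings, with 0 lower, and 13 without the H660 siRNA 1 library. From C4-2B MDVR alone 21 were higher and 0 lower, whereas H660 alone gave 10 higher and 7 lower with a median of 0.02. Without the C4-2B MDVR siRNA 1 library 8 were higher and 3 lower, against 2356 and 2073 of all genes. All genes gave 2022 higher without the H660 siRNA 1 library. They gave 34.2% higher and 25% lower from C4-2B MDVR alone, and 34.8% and 38.9% from H660 alone.
Mitochondrially encoded proteins were higher in all 4 for 12 of 13, against 12.2% of all genes. Their medians were 1.40 and 1.09 in C4-2B MDVR and 0.13 and 0.13 in H660. The C4-2B MDVR values stand beside the low mitochondrial share of that control given above. After quantile normalization 1 of the 13 was higher in all 4, against 11 with voom. Quantile normalization gives equal ranks equal values, so it can hold changes of top-ranked genes at 0. The list's medians were then 0.07 and 0 in C4-2B MDVR and 0 and 0 in H660. That count therefore cannot show whether the direction holds. MT-ATP8 was the one that kept its sign under the scalings it entered, at 135, 316 and 282 FPKM in C4-2B MDVR and 324, 462 and 424 in H660.

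Lists tied to plexins, androgen and neural features are read against 12.2% of all genes higher and 10.1% lower in all 4. Among 21 tested plexins, semaphorins and partners, 3 (14.3%) were lower in all 4 and 0 higher: PLXND1 itself, ARHGEF11, a guanine nucleotide exchange factor that binds plexins, and SEMA6C, with additive effects of -0.81, -0.21 and -0.13. Of 19 androgen-regulated genes 4 (21.1%) were lower and 0 higher, with 5 lower under each of the 3 scalings, 7 without the C4-2B MDVR siRNA 1 library and 9 from either line alone. All genes gave 2073 lower without that library, 38.9% from H660 alone and 25% from C4-2B MDVR alone. Of 10 neuroendocrine and neural genes 1 was higher and 0 lower, and of 12 ERK feedback genes 0 were either. RNA interference machinery had 3 of 13 (23.1%) lower and 0 higher. From H660 alone 10 were lower and 1 higher, against 38.9% and 34.8% of all genes. The 3 include AGO2, the slicer of the silencing complex, with changes of -0.23, -0.35, -0.16 and -0.28.
The remaining lists gave, as genes higher and lower in all 4, 1 and 0 of 17 amino acid transporters, 11 and 1 of 37 in vesicle transport from the endoplasmic reticulum, 9 and 0 of 29 in autophagy and lysosome, 0 and 5 of 39 in G1 and S phase, and 6 and 3 of 28 in hypoxia and glycolysis. They gave 4 and 0 of 11 YAP and TEAD factors and targets, 3 and 1 of 12 NF-kB targets, 4 and 3 of 26 apoptosis regulators, 12 and 0 of 66 nuclear-encoded respiratory chain genes and 6 and 0 of 74 ribosomal protein genes. They gave 2 and 6 of 30 SR and hnRNP genes, 3 and 1 of 14 histone genes and 3 and 0 of 18 epithelial and mesenchymal genes. Several of these counts moved under the other scalings. The lean to higher was lost for respiratory chain and ribosomal protein genes, and the higher count fell for vesicle transport, autophagy and lysosome genes. Respiratory chain genes gave 5 higher and 6 lower after quantile normalization, 3 and 7 with mitochondrial genes and short RNAs left out, and 3 and 6 with voom. Ribosomal protein genes gave 1 and 6 after quantile normalization and 1 and 0 under the other 2 scalings. Vesicle transport genes gave 9 and 3, 7 and 2, and 4 and 3 in the same order. Autophagy and lysosome genes gave 4 and 0, 5 and 0, and 6 and 2. Genes of G1 and S phase gave 0 and 8, 0 and 9, and 0 and 10. On the deposited scale their share lower in all 4, 12.8%, was near the 10.1% of all genes. Their balance depended on 1 library, with 6 higher and 5 lower without the C4-2B MDVR siRNA 1 library, against 2356 and 2073 of all genes. Without the C4-2B MDVR siRNA 2 library 0 were higher and 20 lower, against 2000 and 1963 of all genes. No member of any of the 32 lists passed over all genes.

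**Figure D5:**
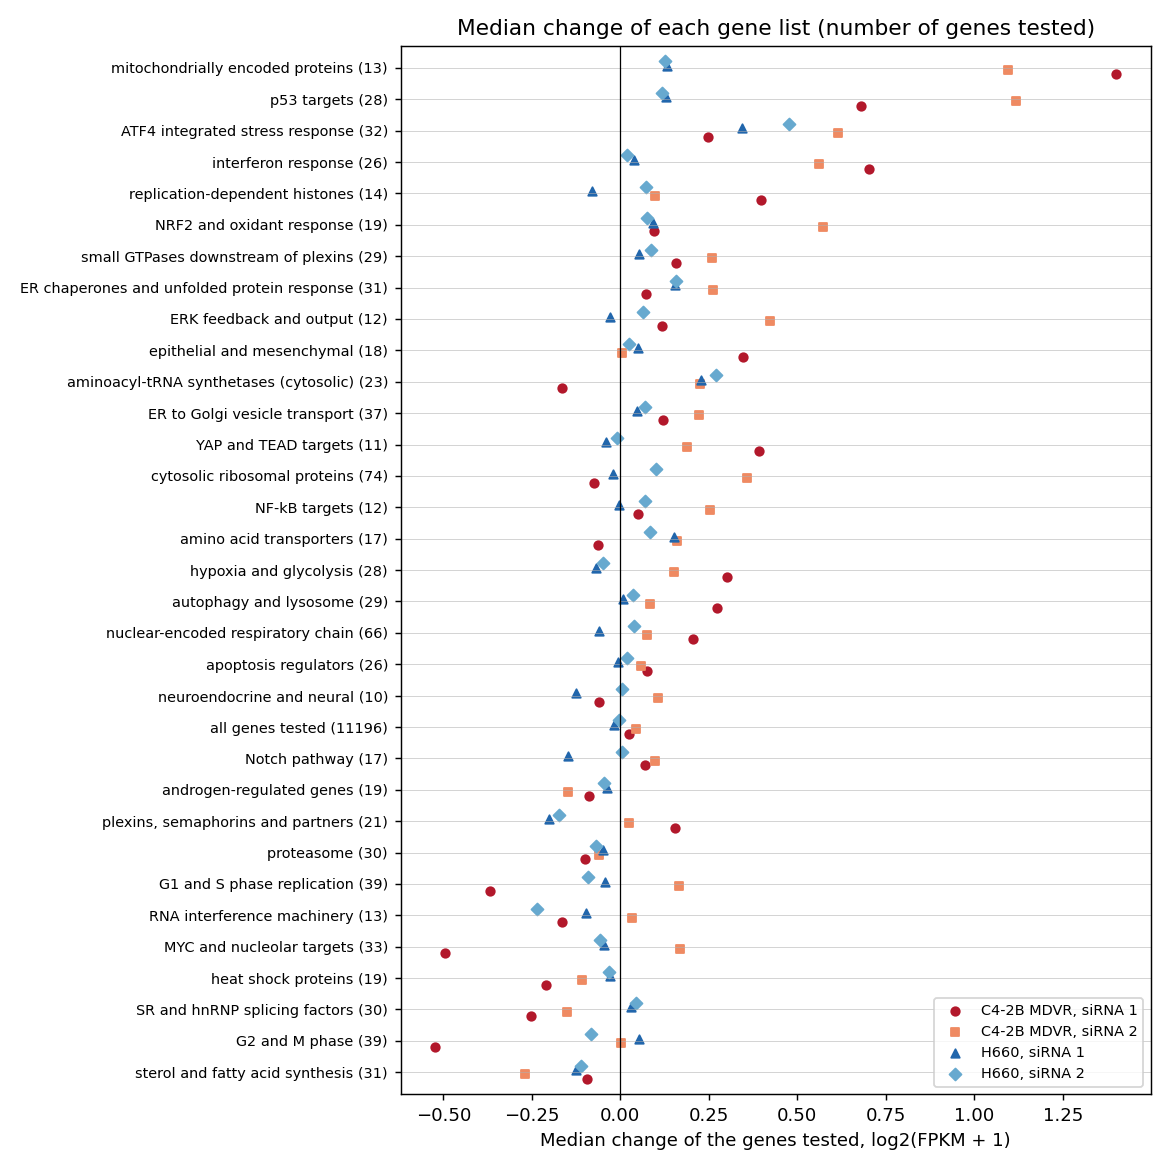
Median change of each gene list in log2(FPKM + 1), 1 symbol per knockdown library, with the number of genes tested in parentheses and all 11196 genes for reference. The ATF4 list has medians of 0.25, 0.61, 0.34 and 0.48, whereas the p53, interferon and mitochondrial lists have medians above 0.5 in C4-2B MDVR and at most 0.13 in H660.

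The strictest sets held many short or poorly measured genes. Of the 108 genes at least 0.25 higher in all 4, 84 were protein coding, 9 other noncoding, 8 short RNAs and 7 pseudogenes, and of the 60 lower 23 were protein coding, 13 short RNAs, 13 other noncoding and 11 pseudogenes. Of the 161 short RNAs tested 8.07% were among the 60 lower genes, against 0.536% of all genes. Few fragments lay behind many of these: 40 of the 60 lower genes (66.7%) had fewer than 100 fragments in at least 1 library, against 29 of the 108 higher genes (26.9%) and 14% of all genes tested. The median exon length was 1014.5 bases for the 60 and 2814 for the 108, against 4628.5 for all. KIAA0100 and EPOP, described above, are protein-coding members of the lower set.

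The lines were also compared for the size of the change. The mean change of the siRNAs was larger in C4-2B MDVR than in H660 for 69 of the 108 higher genes (63.9%) and 40 of the 60 lower ones (66.7%), against 57.5% of all genes tested. By limma's test of the difference between the lines, 1 gene passed among all tested (0.00893%), a mitochondrial transfer RNA that is not in the common set. Among the 2500 common genes the lowest adjusted p for that difference was 0.217, for the interferon-induced gene IFIT2, chosen here after its value was seen. With 2 residual degrees of freedom, a p that misses the threshold does not show that the lines responded alike.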

How the data were processed

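Messenger RNA of 6 libraries was sequenced as paired ends. The submitters' processing notes name HISAT, Cufflinks and hg18, with no versions. The authors deposited FPKM values, and all 58735 gene IDs matched GENCODE 29 (GRCh38), which gave names, exon lengths and coordinates here. FPKM times exon length gave whole fragments, within 0.05, for 100% of the 11224 to 13428 genes checked in each library, those up to 100 fragments, and the fragment numbers come from this step. The depth sets the 95% counting intervals.

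Values were analysed as log2(FPKM + 1), with a pseudocount of 1, in limma 3.58.1 (R 4.3.3) with an intensity trend, two-sided, adjusted by Benjamini-Hochberg over 11196 genes at a threshold of 0.05. The fit had line and knockdown as additive terms (3 residual degrees of freedom); a fit with 4 groups (2 residual degrees of freedom) gave the line difference, and takes each single control to be as variable as the knockdown pairs. The scripts were tested on simulated data. Python 3.11.15 and pandas 2.3.3 made the summaries. Alternatives were another pseudocount, filters, scalings, no trend, a block for the siRNA number, voom on the recovered fragments and leaving out each library. Counts of genes that kept their sign over the 3 scalings, and the exon overlaps, were added after the data were seen.

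The members and the 32 gene lists were chosen with earlier results of these data known, so no list is independent evidence of its direction. Named genes are PLXND1, the 15 protein-coding or long noncoding genes each way with the largest smallest change, up to 4 members per list, and genes past the threshold of the line difference; further list members and IFIT2 were named after their values were seen. Short RNAs, clone IDs and pseudogenes were counted, not named, and a few genes that the rule names are not reported here. The siRNA numbers do not pair libraries across lines beyond sharing a reagent.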

Additional observations from a re-analysis of the deposited data

Results flagged for a closer look

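The difference of the knockdown effect between the lines passed limma's test for 1 gene, MT-TR, a mitochondrial transfer RNA: H660 minus C4-2B MDVR was 5.09 on the log2 scale, adjusted p = 0.0487. MT-TR was listed at 0 in the H660 control and at 33.4 and 32.8 FPKM with the siRNAs, and at 23.7, 21.4 and 26.5 FPKM in C4-2B MDVR. It is a short RNA and was named after its value was seen.

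The medians of 4 gene lists had opposite signs in the lines for both siRNAs; these differences were not tested. Hypoxia and glycolysis genes were at 0.30 and 0.15 in C4-2B MDVR and -0.07 and -0.05 in H660, a difference of -0.28 (H660 minus C4-2B MDVR). Plexins, semaphorins and partners were at 0.16 and 0.03 and at -0.20 and -0.17, a difference of -0.28. For this list the opposite signs held on the deposited scale only. The siRNA 2 median in C4-2B MDVR was -0.005 after quantile normalization, -0.08 with mitochondrial genes and short RNAs left out, and -0.11 with voom. YAP and TEAD factors and targets were at 0.39 and 0.19 and at -0.04 and -0.01, a difference of -0.32. SR and hnRNP splicing factors were at -0.25 and -0.15 and at 0.03 and 0.04, a difference of 0.24.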

How the results depend on the processing

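No gene passed the joint test in any setting except when the C4-2B MDVR control was left out, where 1 gene passed (MT-TR, adjusted p = 0.00716); the setting then rests on H660. With libraries left out in turn, 0 to 1 genes passed. Genes higher in all 4 (1371) numbered 2156 with no filter, 869 with mitochondrial genes and short RNAs left out, 781 with voom, and 1725 to 3897 with a library left out, where fewer signs have to match. Genes lower in all 4 (1129) numbered 2791, 1694, 1918 and 1480 to 4356 in the same order. The line difference (1 gene) gave 0 when 1 FPKM on average was required in either line only, 1372 with no filter, 0 with mitochondrial genes and short RNAs left out, 0 with voom and 0 to 217 with a knockdown library left out; where the cause is not the number of genes or libraries, it was not tested. Of the 130 named genes, MT-CO2 and MT-ND4 reversed after quantile normalization, at -0.018 and -0.082. That scaling can hold changes of top-ranked genes near 0, as said above. Every other value kept its direction in the settings run.

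Adding a replicate block for the siRNA number, the joint test gave 0 genes and a lowest adjusted p of 0.615, and the line difference 7. The deviations of siRNA 1 from siRNA 2 in the lines had r = -0.0081 over genes. With 1 library for each siRNA in a line, this value cannot settle whether the siRNAs acted alike in both lines.

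With 1 control per line and 4 knockdown libraries, precision is limited by the number of libraries, and genes under 100 fragments carry wide counting error as well.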
